A study of Mus musculus with 6 samples.

Results

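The endothelial, stellate and bile duct cells of the liver were followed through 32 marker genes, 16 of sinusoidal endothelial cells, 12 of stellate cells and related mesenchymal cells and 4 of bile duct epithelium, of 22180 genes measured. The markers were taken by symbol, each from the probe set that the platform's annotation maps to that symbol alone, and all 32 were measured, each by 1 probe set. The CR-CD group held male C57BL offspring of dams fed a chromium-restricted diet through pregnancy and lactation, moved to the control diet at weaning. The CD-CD group held male C57BL offspring of dams on the control diet, kept on that diet after weaning. Both groups were killed fasted at 32 weeks of age, and whole liver RNA was measured with Affymetrix arrays of the type Mouse Gene 2.0 ST, 3 per group. The values are normalized log2 signals, in which 1 unit is a doubling. Nothing in the labels says whether each array held a separate animal or litter, so the SD and p values measure only the spread between arrays.

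Liver capillaries, the sinusoids, are lined by endothelial cells that lack a basement membrane and take up waste from the blood through scavenger receptors. Stellate cells lie between that lining and the hepatocytes, store vitamin A, and can turn into contractile cells that deposit matrix. Cholangiocytes line the bile ducts and make up a small part of the organ. In RNA from whole liver, fewer cells of a type and less RNA per cell cannot be told apart.

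The hepatocyte markers, headed by Alb (albumin), were brighter than at least 92.1% of all genes. All 16 endothelial and all 12 stellate markers lay above the median gene (5.81), but only 2 of 4 bile duct markers did. The median endothelial marker was brighter than 86.0% of genes (range 68.7% to 95.2%), the median stellate marker than 70.6% (53.4% to 98.3%) and the median bile duct marker than 47.9% (29.5% to 64.6%). Signals of different probe sets depend on their probes as well as on the transcript, so this is an order of brightness and not of transcript number. The brightest were Fcgr2b, an inhibitory receptor for immunoglobulin G, among the endothelial genes, Dcn, the matrix proteoglycan decorin, among the stellate genes, and Sox9, a transcription factor of duct cells that some periportal hepatocytes also make, among the bile duct genes. The dimmest was Epcam, the adhesion protein of duct epithelium, with a mean of 5.19 ± 0.04 for CR-CD and 5.07 ± 0.07 for CD-CD (SD, n = 3 each).

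**Figure D1:**
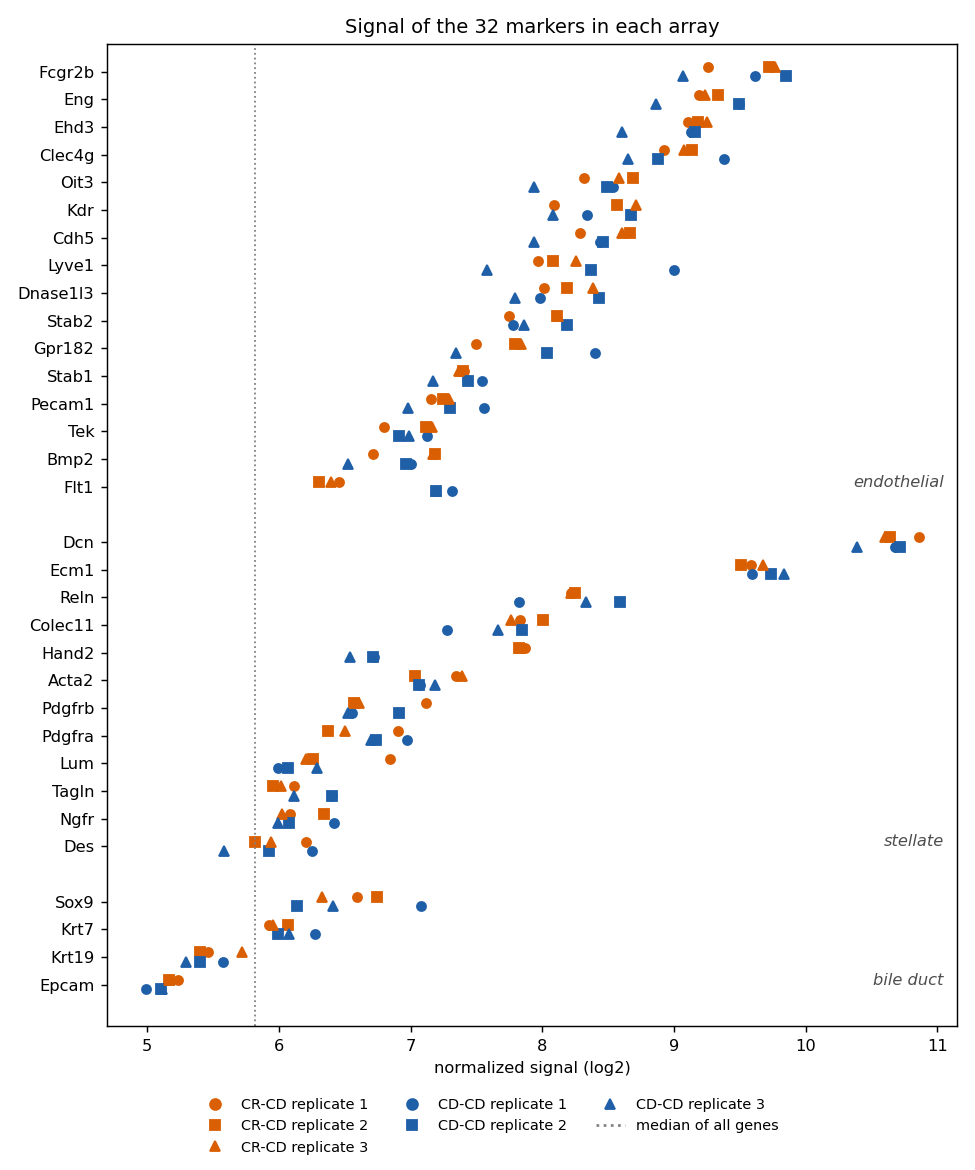
Normalized log2 signal (x axis) of the 32 markers in each array, with CR-CD arrays in orange above CD-CD arrays in blue and the replicate number given by the shape. Endothelial markers lie between 6.31 and 9.85, bile duct markers between 4.99 and 7.08, and only in Flt1, Hand2, Tagln and Epcam do the groups not overlap.

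The question the arrays address is whether a mother's chromium restriction leaves a mark on gene expression in the adult liver. Of the 32 markers, 1 rose and 1 fell in CR-CD, with limma's p adjusted over all genes below 0.05, and 30 did not pass. The stellate marker Hand2 rose 2.27-fold and the endothelial marker Flt1 fell, 1.80-fold lower. Over all genes 1.48% passed, 0.784% higher and 0.699% lower in CR-CD. At an unadjusted p under 0.05, 3 of 32 markers passed, against 6.38% of all genes, with 1 higher (3.26% of all genes) and 2 lower (3.12%). In 4 of 32 the groups did not overlap, against 11.4% of all genes, with 2 higher (5.63%) and 2 lower (5.77%). The same pair, Hand2 and Flt1, passed a fold of 1.5 with an unadjusted p of 0.05 (1.67% of all genes) and the methods' t-test before (5.78%) and after (1.24%) adjustment.

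Hand2 and Flt1 share a feature of the deposited numbers. Almost all values in the table are exact single-precision numbers, but 324 genes hold at least 1 value in a longer decimal format, and these made up 315 of the 329 genes that passed. Hand2 holds the longer format in its 3 CR-CD values and Flt1 in its 3 CD-CD values, in each case the group with the higher signal. Among the 165 genes with the longer format in the 3 CR-CD values alone, 150 were higher in CR-CD, and among the 122 with it in the 3 CD-CD values alone, 115 were higher in CD-CD. No value of the other 30 markers is in the longer format, and 0 of these 30 passed the adjusted p. With all probe sets that hold the longer format removed, 0 of 21878 genes passed in limma. An unadjusted p under 0.05 was found in 1091 of the 21878, beside 1415 of 22180 with all probe sets kept. Where no gene differs, that threshold is passed by a share of about 0.05. The part of the number format in the results for Hand2 and Flt1 was not tested.

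**Figure D2:**
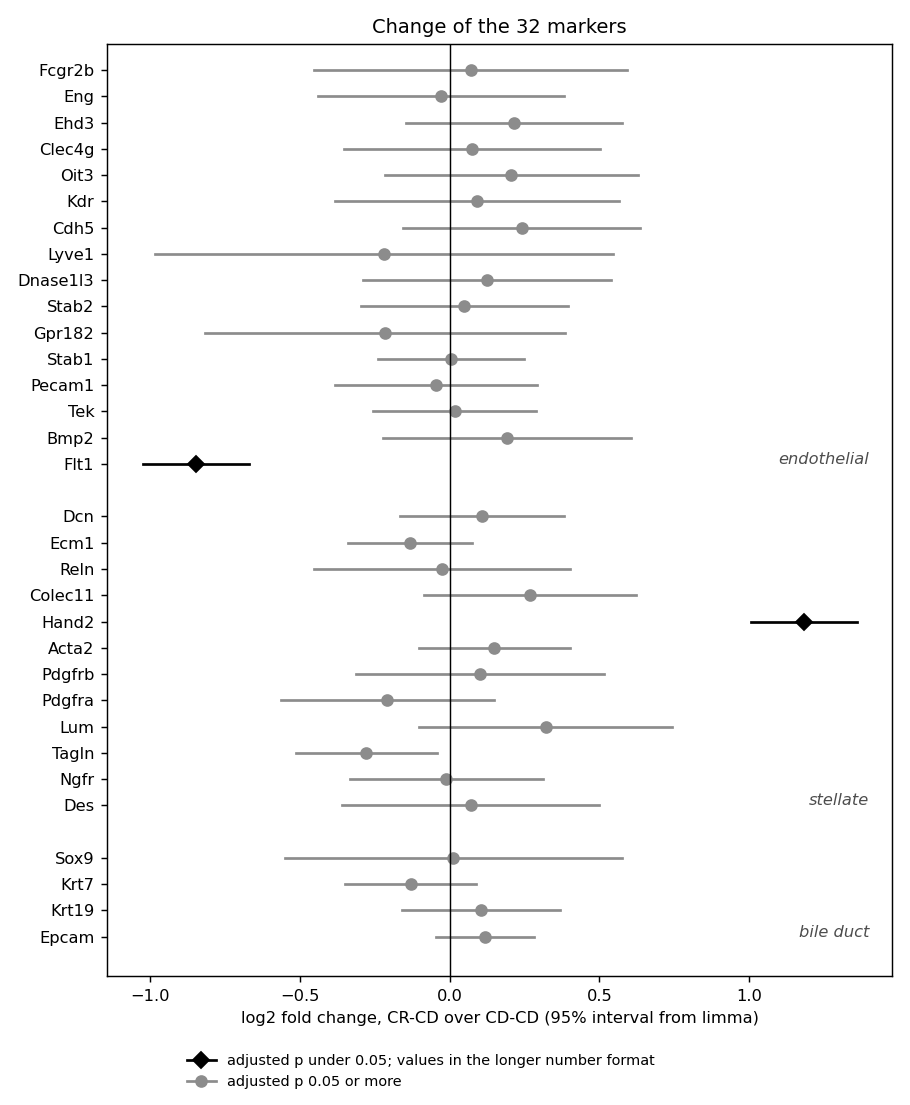
Log2 fold change of CR-CD over CD-CD (x axis) for the 32 markers, with 95% intervals from limma, n = 3 arrays per group. Black diamonds mark Flt1 (-0.85) and Hand2 (1.18), which passed the adjusted p and hold values in the longer number format, and grey circles mark the other 30.

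Among the growth factor receptors of the endothelium, Flt1, the receptor VEGFR1 that binds VEGF-A and can hold it away from other receptors, had signals of 6.46, 6.31 and 6.39 in CR-CD, against 7.32, 7.20 and 7.19 in CD-CD. The highest CR-CD array lay 0.73 below the lowest CD-CD array. CR-CD averaged 6.39 ± 0.08 and CD-CD 7.23 ± 0.07 (SD, n = 3 each). The log2 fold change was -0.85 (standard error 0.07, 95% interval -1.03 to -0.67, adjusted p = 0.000993 from limma). Kdr, the receptor VEGFR2 that carries most of the growth signal of VEGF-A, had signals of 8.09, 8.57 and 8.71 in CR-CD, against 8.34, 8.67 and 8.08 in CD-CD. The groups overlapped, and the log2 fold change was 0.09 (95% interval -0.38 to 0.56, adjusted p = 0.999). The intervals of Flt1 and Kdr do not overlap, but the difference between them was not itself tested.

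The promoters of the VEGF receptors among the markers, Flt1, which passed the test, and Kdr, which did not, are given from RefSeq on GRCm38.p6. They run from 250 bases before to 50 bases after the start site. That of Flt1 is chr5:147725962-147726261 and that of Kdr chr5:75978406-75978705, both on the minus strand. Capitals mark matches on either strand to GGGCGG (the GC box), CCGGAA (an ETS core), TGACGTCA (the cyclic AMP response element) and TATAAA (the TATA box).
Flt1 promoter: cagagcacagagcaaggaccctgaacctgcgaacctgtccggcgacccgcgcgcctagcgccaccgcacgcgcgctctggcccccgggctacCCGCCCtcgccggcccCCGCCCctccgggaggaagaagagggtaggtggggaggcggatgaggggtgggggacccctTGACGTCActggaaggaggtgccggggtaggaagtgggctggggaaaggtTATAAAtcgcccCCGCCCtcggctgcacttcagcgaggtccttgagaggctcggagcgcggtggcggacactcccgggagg
Kdr promoter: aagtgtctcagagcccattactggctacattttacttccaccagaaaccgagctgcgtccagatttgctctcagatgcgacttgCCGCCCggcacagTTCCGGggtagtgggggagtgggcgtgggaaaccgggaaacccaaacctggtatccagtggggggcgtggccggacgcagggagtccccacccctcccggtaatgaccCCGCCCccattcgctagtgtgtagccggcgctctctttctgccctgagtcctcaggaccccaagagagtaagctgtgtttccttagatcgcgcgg
The Flt1 window holds 3 matches to the GC box, 1 to the cyclic AMP element from 81 to 74 bases before the start site and 1 to the TATA box, and the Kdr window 2 to the GC box and 1 to the ETS core. In all 32851 promoters of the same length, 35.7% hold the GC box, 14.9% the ETS core, 1.79% the cyclic AMP element and 13.6% the TATA box. Of the 19 markers with a promoter in the reference, 10 hold the GC box, 3 the ETS core, 1 the cyclic AMP element and 3 the TATA box. A match is a description of the letters and does not show that a factor binds.

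Tek, the angiopoietin receptor TIE2, and Eng, a co-receptor for BMP9, completed the receptors. Tek had 6.79, 7.12 and 7.16 in CR-CD, against 7.12, 6.91 and 6.99 in CD-CD, a log2 fold change of 0.02 (95% interval -0.26 to 0.29). Eng had 9.19, 9.33 and 9.24 in CR-CD, against 9.50, 9.49 and 8.86 in CD-CD, a log2 fold change of -0.03 (-0.44 to 0.38). Both overlapped between groups, and the CR-CD arrays of Eng lay within the CD-CD span. Of 13 measured genes for ligands of the receptors among the markers, 0 passed the adjusted p in limma (1.48% of all genes). The median log2 fold change was 0.06, and 1 gene had an unadjusted p under 0.05 (6.38% of all genes). That gene was Vegfa itself, the ligand of Flt1 and Kdr, with 9.28, 9.31 and 9.22 in CR-CD, against 9.32, 9.78 and 9.79 in CD-CD (log2 fold change -0.36, adjusted p = 0.719 from limma). The groups did not overlap, with a gap of 0.0088 between CR-CD replicate 2 and CD-CD replicate 1, and without CD-CD replicate 1 the log2 fold change was -0.52 (adjusted p = 0.0248 from limma, against 0.51 to 0.999 under the other alternatives).

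**Figure D3:**
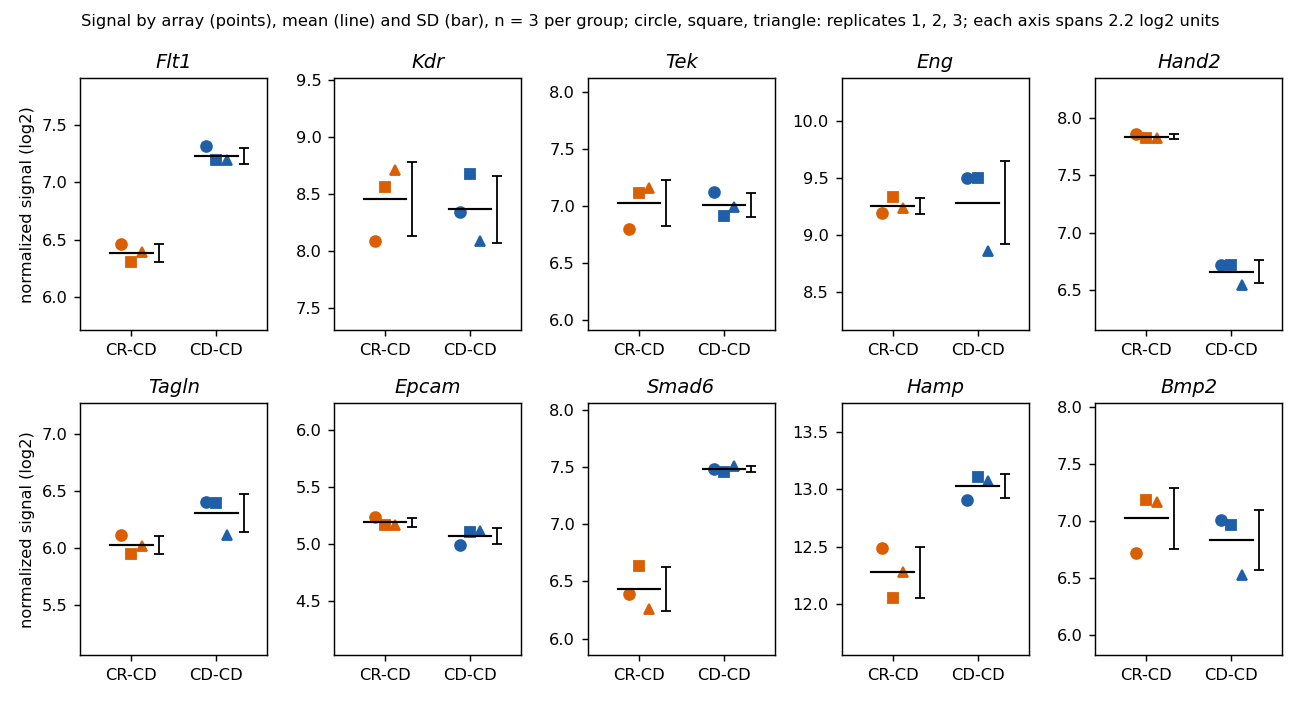
Normalized log2 signal (y axis) of 10 genes by array, with points for the arrays, a line for the mean and a bar for the SD (n = 3 per group), and each axis spanning 2.2 log2 units. Flt1, Hand2, Smad6 and Hamp stand clear between the groups, Tagln, with a gap under 0.01, and Epcam are separated narrowly, and Kdr, Tek, Eng and Bmp2 overlap.

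The scavenger and uptake receptors of the sinusoid did not separate the groups. Stab1 and Stab2, the stabilins that clear hyaluronan and other waste, had log2 fold changes of 0.00 (standard error 0.10) and 0.05 (standard error 0.15). Stab1 was even in CR-CD, at 7.40, 7.40 and 7.37, and spread in CD-CD, at 7.55, 7.44 and 7.17. Lyve1, a hyaluronan receptor, had 7.96, 8.08 and 8.25 in CR-CD, against 9.0, 8.37 and 7.58 in CD-CD. The 3 CR-CD arrays thus lay inside the span of the CD-CD arrays, and the log2 fold change of -0.22 (95% interval -0.99 to 0.54) was 0.12 without CD-CD replicate 1. Fcgr2b had 9.26, 9.72 and 9.77 in CR-CD, against 9.62, 9.85 and 9.07 in CD-CD, with the CR-CD arrays again inside the CD-CD span. Fcgr2b and Clec4g, a C-type lectin of the sinusoid, both had log2 fold changes of 0.07, with adjusted p of 0.999 from limma.

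The cell contact genes Pecam1, which encodes CD31, and Cdh5, which encodes VE-cadherin, had log2 fold changes of -0.05 and 0.24. Cdh5 had 8.29, 8.67 and 8.60 in CR-CD, against 8.44, 8.46 and 7.94 in CD-CD, and had the smallest p of the endothelial markers after Flt1 (adjusted p = 0.919 from limma). Ehd3, an ATPase of endocytic recycling, came next, with 9.10, 9.18 and 9.26 in CR-CD, against 9.13, 9.16 and 8.61 in CD-CD (log2 fold change 0.22, adjusted p = 0.919 from limma). In both genes the lowest array was CD-CD replicate 3, and without it the log2 fold change was 0.07 for Cdh5 and 0.04 for Ehd3. Dnase1l3, a secreted nuclease, had a log2 fold change of 0.13, Oit3 of 0.21 (0.01 without CD-CD replicate 3) and Gpr182, an atypical chemokine receptor, of -0.22. The median over the 16 endothelial markers was 0.06, beside 0.00 over all genes. In CR-CD 11 means were higher and 5 lower, beside 11244 higher of all 22180 genes.

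Bmp2, a ligand by which sinusoidal endothelial cells keep up hepcidin in hepatocytes, had 6.72, 7.19 and 7.17 in CR-CD, against 7.01, 6.96 and 6.53 in CD-CD, and the groups overlapped (log2 fold change 0.19, 95% interval -0.22 to 0.60, and 0.04 without CD-CD replicate 3). Of 5 genes listed as BMP targets of hepatocytes, all 5 means were lower in CR-CD, beside 10936 of all 22180 genes. RNA from whole liver does not show which cells made these 5 transcripts. The adjusted p was passed by 2 of the 5, both lower (0.699% of all genes). Hamp, which encodes hepcidin, had 12.49, 12.05 and 12.28 in CR-CD, against 12.91, 13.11 and 13.07 in CD-CD, without overlap. It fell by 0.76 on the log2 scale (adjusted p = 0.0307 from limma), and Smad6, an inhibitor in the same pathway, fell by 1.05 (adjusted p = 0.00178). Smad6 holds the longer number format in its CD-CD values and Hamp in none. The call of Hamp was lost with the replicate block (adjusted p = 0.0729) and with the methods' t-test (0.293). It was also lost without CR-CD replicates 2 or 3 or CD-CD replicates 2 or 3 (0.0783 to 0.176). Without the longer format Hamp kept its change and its unadjusted p (0.000441 from limma). Its adjusted p from limma was 0.884 there. The adjustment ranks all genes together, and that step removed probe sets of 315 of the 329 passing genes. The call of Hamp in the main fit thus rests on its being ranked with the genes of the longer format. Smad6 lost its call with the methods' t-test (0.0568) and had no value without the longer format.

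Most endothelial markers had their lowest signal in the same array. CD-CD replicate 3 was the lowest array in 13 of 16 endothelial markers, against 18.7% of all genes, and CD-CD replicate 1 was the highest in 7 of 16, against 18.4% of all genes. The median deviation of the 16 genes from their own means was -0.17, 0.11 and 0.15 in CR-CD replicates 1, 2 and 3 and 0.11, 0.12 and -0.38 in CD-CD replicates 1, 2 and 3. Thus CR-CD replicate 1 and CD-CD replicate 3 were low and the other 4 arrays were close together. The median log2 fold change of the list, 0.06, was -0.07 without CD-CD replicate 3, -0.02 without CR-CD replicate 3 and 0.15 without CR-CD replicate 1. Flt1 did not share this pattern in CD-CD, where its SD of 0.07 was the smallest of the 16 genes and the median SD of the list was 0.30. Its 3 CD-CD values are in the longer number format. The 324 genes holding that format in any array had a median SD of 0.0745 within CD-CD, beside 0.110 over all genes. They include 165 that hold it in the CR-CD values alone, so the median does not describe CD-CD values of that format only.

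**Figure D4:**
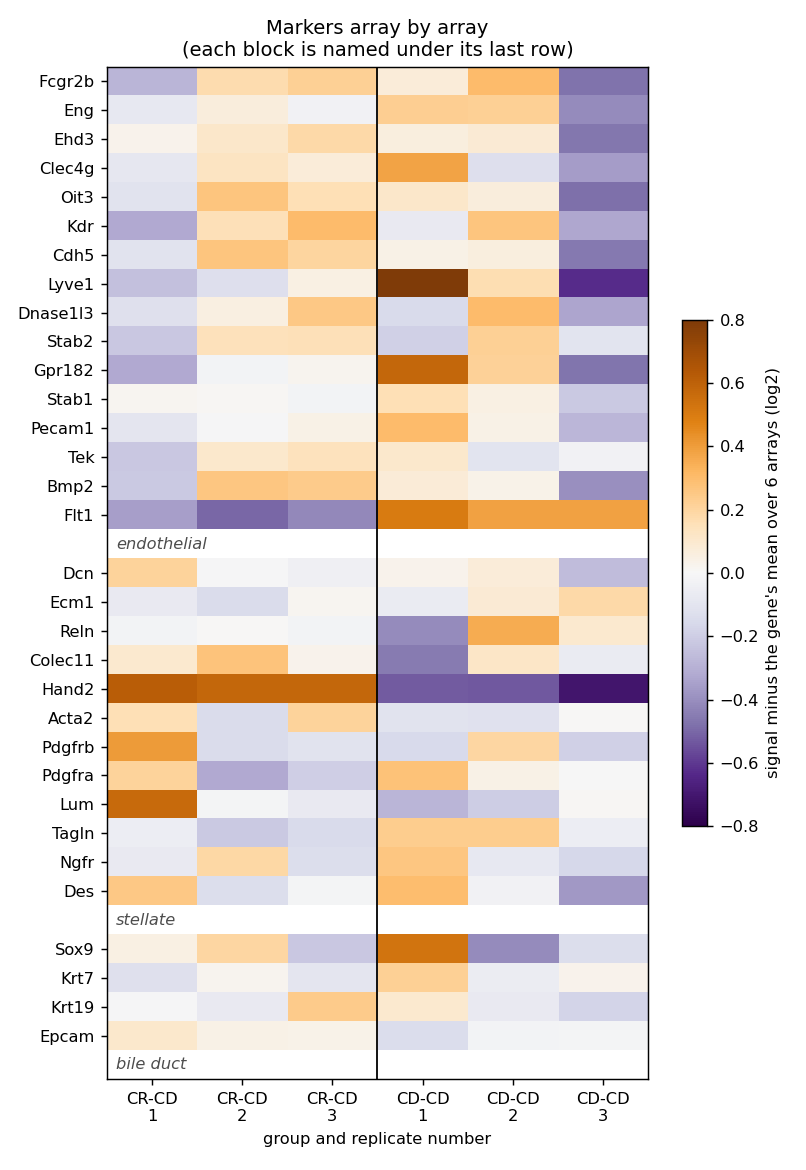
Signal of each marker minus its mean over 6 arrays (colour, log2), with the 3 CR-CD arrays left of the line and the 3 CD-CD arrays right of it. Flt1 and Hand2 change at the line, while CD-CD replicate 3 is the lowest array in 13 of 16 endothelial rows.

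A second endothelial list held 25 measured genes, of general vessel genes, surface receptors, transcription factors and secreted factors. Some of them, such as Mrc1, are also made by sinusoidal cells. Of the 25, 0 passed the adjusted p in limma (1.48% of all genes). An unadjusted p under 0.05 was found in 2, both lower (3.12% of all genes). In CR-CD 19 means were lower, beside 10936 of all 22180 genes (median log2 fold change of the list -0.08). The smallest p was that of Sox17, a transcription factor of arterial endothelium, at 5.70, 6.0 and 5.56 in CR-CD, against 6.07, 6.17 and 6.0 in CD-CD (log2 fold change -0.33, adjusted p = 0.721 from limma). In this list CD-CD replicate 3 was the lowest array in 6 of 25 genes, against 18.7% of all genes. Among other genes of the list, chosen after their values were seen, Mrc1, the mannose receptor of sinusoidal cells, had 8.52, 8.84 and 8.91 in CR-CD, against 8.84, 8.91 and 8.27 in CD-CD. Vwf, the clotting factor carrier of larger vessels, had 6.0, 5.74 and 5.73 in CR-CD, against 6.18, 5.61 and 5.99 in CD-CD. CD-CD replicate 3 was the lowest array for Mrc1 but not for Vwf. It was also the lowest for the general vessel genes Cldn5 (5.61) and Esam (5.98). It was not the lowest for the transcription factors Gata4 (7.03) and Maf (7.87). Whether the low array follows the kind of vessel was not tested.

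**Figure D5:**
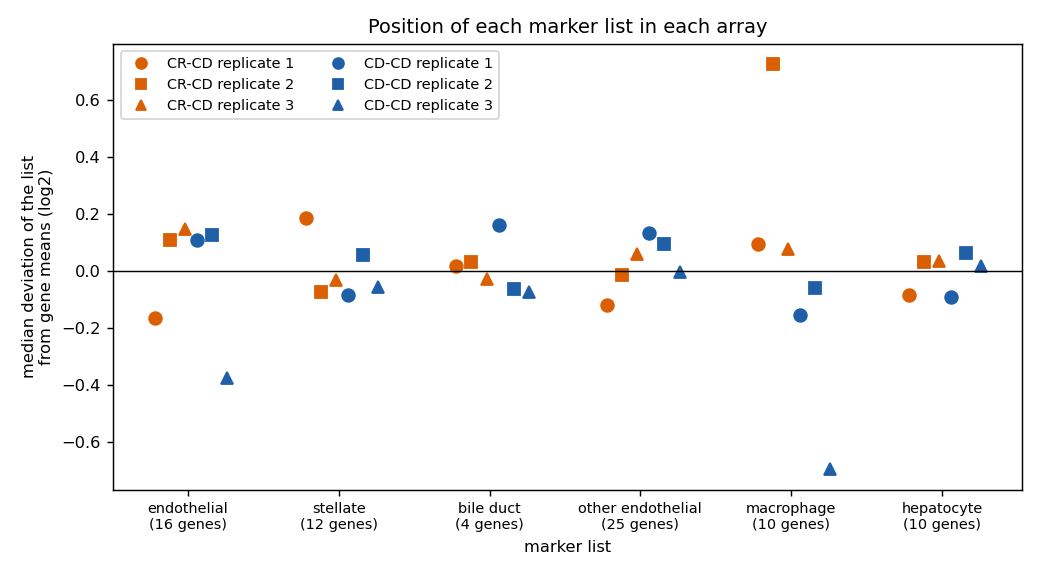
Median deviation of 6 marker lists from their gene means (y axis, log2) in each array, with CR-CD in orange left of CD-CD in blue and the replicate number given by the shape. CD-CD replicate 3 lies at -0.38 for the endothelial and -0.70 for the macrophage list, and the stellate, bile duct and hepatocyte lists stay between -0.09 and 0.18 in every array.

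Markers of other cell types were set beside these lists. All 10 macrophage marker means were higher in CR-CD (median log2 fold change 0.62), beside 11244 of all 22180 genes. Of the 10, 0 passed the adjusted p in limma (1.48% of all genes). An unadjusted p under 0.05 was found in 5, all higher (3.26% of all genes). In 5 the groups did not overlap, all higher (5.63%). The summed signal of the macrophage markers ran from 11.55 to 12.24 in CR-CD and from 10.89 to 11.39 in CD-CD on the log2 scale. CD-CD replicate 3 was lowest in 8 of 10, against 18.7% of all genes. The summed signal of the endothelial markers ran from 12.19 to 12.47 in CR-CD and from 11.97 to 12.53 in CD-CD, that of the stellate markers from 11.85 to 12.01 and from 11.76 to 11.93, and that of the bile duct markers from 7.85 to 7.98 and from 7.72 to 8.19. The hepatocyte markers ran from 15.54 to 15.62 in CR-CD and from 15.51 to 15.65 in CD-CD, with a median log2 fold change of 0.01. The part of the macrophage markers in the results above was not tested.

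Among the stellate markers, Hand2, a transcription factor of the stellate lineage, had signals of 7.87, 7.82 and 7.83 in CR-CD, against 6.72, 6.71 and 6.54 in CD-CD. The lowest CR-CD array was 1.1 above the highest CD-CD array. CR-CD averaged 7.84 ± 0.02 and CD-CD 6.66 ± 0.10 (SD, n = 3 each). The log2 fold change was 1.18 (standard error 0.07, 95% interval 1.0 to 1.36, adjusted p = 0.000195 from limma). The promoter of Hand2, the marker with the largest change, is chr8:57320733-57321032 on the plus strand of GRCm38.p6 in RefSeq, with capitals for the same motifs as above.
Hand2 promoter: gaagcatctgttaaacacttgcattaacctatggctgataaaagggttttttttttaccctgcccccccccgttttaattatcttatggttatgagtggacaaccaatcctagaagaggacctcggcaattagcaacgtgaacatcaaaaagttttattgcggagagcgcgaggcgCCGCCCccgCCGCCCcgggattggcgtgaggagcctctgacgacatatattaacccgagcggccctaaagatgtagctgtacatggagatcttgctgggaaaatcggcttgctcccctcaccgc
It holds 2 matches to the GC box, from 74 to 69 and from 65 to 60 bases before the start site, and none to the other motifs searched.

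The cytoskeletal and contractile genes gave no common direction. Tagln, which encodes the actin-binding protein transgelin and also marks vascular smooth muscle, had 6.11, 5.95 and 6.02 in CR-CD, against 6.40, 6.40 and 6.12 in CD-CD. The highest CR-CD array lay just under the lowest CD-CD array, and the log2 fold change of -0.28 (95% interval -0.51 to -0.04) did not pass, with an adjusted p = 0.701 from limma. Acta2, smooth muscle actin and the usual sign of an activated stellate cell, had 7.34, 7.04 and 7.39 in CR-CD, against 7.07, 7.06 and 7.19 in CD-CD, and overlapped (log2 fold change 0.15, 95% interval -0.10 to 0.40). Des, which encodes the filament protein desmin, had a log2 fold change of 0.07 (-0.36 to 0.50).

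The receptors Pdgfra and Pdgfrb, for platelet-derived growth factors, had log2 fold changes of -0.21 and 0.10, and Ngfr, the low-affinity neurotrophin receptor, of -0.01. Among matrix and secreted genes, Lum, the proteoglycan lumican, had 6.84, 6.26 and 6.21 in CR-CD, against 5.99, 6.07 and 6.29 in CD-CD. One array, CR-CD replicate 1, stood above the rest, and the log2 fold change, 0.32 over all arrays with limma's adjusted p = 0.857, was 0.12 without it. Dcn, the brightest stellate marker, had 10.86, 10.64 and 10.61 in CR-CD, against 10.68, 10.72 and 10.39 in CD-CD (log2 fold change 0.11, and 0.0043 without CD-CD replicate 3). Pdgfrb had 7.12, 6.57 and 6.61 in CR-CD, against 6.56, 6.92 and 6.52 in CD-CD. Over the 12 stellate markers, CR-CD replicate 1 was the highest array in 4 (Lum, Dcn, Pdgfrb and Hand2), against 18.0% of all genes. CD-CD replicate 1 was the highest in another 4 (Pdgfra, Ngfr, Des and Tagln), against 18.4%. CD-CD replicate 3 was the lowest array in 5 of the 12, against 18.7% of all genes. The lowest was CR-CD replicate 2 in 4 (13.7% of all genes) and CD-CD replicate 1 in 3 (18.7%).

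Colec11, a collectin that binds sugars on microbes, had a log2 fold change of 0.27 (95% interval -0.09 to 0.62), and Ecm1, a secreted protein that restrains the activation of TGF-beta, of -0.13 (-0.34 to 0.08). Reln, which encodes reelin, was even in CR-CD, at 8.22, 8.25 and 8.21, and spread in CD-CD, at 7.83, 8.59 and 8.33, with a log2 fold change of -0.02. In CR-CD 7 means of the 12 stellate markers were higher and 5 lower, beside 11244 higher of all 22180 genes. The median over the 12 was 0.09, and without Hand2 it was 0.07. With 1 array left out it ran from -0.00070 (without CR-CD replicate 1) to 0.15 (without CR-CD replicate 2). In a second list of 19 measured stellate and fibroblast genes, 0 passed the adjusted p in limma (1.48% of all genes). An unadjusted p under 0.05 was found in 2, both higher (3.26% of all genes). In CR-CD 13 means were higher, beside 11244 of all 22180 genes (median log2 fold change of the list 0.04). The smallest p were those of Vim, the filament protein vimentin, with a log2 fold change of 0.48, and Timp1, an inhibitor of matrix proteases, with 0.18, both with adjusted p = 0.721 from limma.

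None of the 4 bile duct markers passed the adjusted p in limma, and 0 of 4 had an unadjusted p under 0.05, with the same counts by the methods' t-test. Epcam had 5.23, 5.17 and 5.16 in CR-CD, against 4.99, 5.11 and 5.12 in CD-CD, without overlap but with a log2 fold change of 0.12 (95% interval -0.04 to 0.28, adjusted p = 0.876 from limma). The keratin Krt7 had 5.93, 6.07 and 5.95 in CR-CD, against 6.27, 5.99 and 6.07 in CD-CD (log2 fold change -0.13), and Krt19 had 5.46, 5.4 and 5.72 in CR-CD, against 5.57, 5.4 and 5.30 in CD-CD (log2 fold change 0.10). Both keratins overlapped between groups. Sox9 had 6.59, 6.74 and 6.32 in CR-CD, against 7.08, 6.14 and 6.41 in CD-CD, a log2 fold change of 0.01 with a wide interval (-0.55 to 0.57). The median over the 4 genes was 0.06, with 3 means higher in CR-CD, beside 11244 of all 22180 genes.

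Of 17 measured genes in a second bile duct list, 1 passed the adjusted p, higher in CR-CD (0.784% of all genes). It was Cdh1, the epithelial adhesion protein E-cadherin, which hepatocytes also make and which holds the longer number format in its 3 CR-CD values (log2 fold change 1.28, adjusted p = 0.000107 from limma). Its other, dimmer probe set, all in single-precision numbers, had a log2 fold change of -0.01. The remaining 16 did not pass, and the list's median was 0.05.

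The 3 cell types are set side by side as a description, and differences between them were not tested. Their median log2 fold changes were 0.06, 0.09 and 0.06 for the endothelial, stellate and bile duct markers. In the same order, the median SD was 0.19, 0.15 and 0.12 within CR-CD and 0.30, 0.17 and 0.14 within CD-CD. The median deviation of the endothelial minus that of the stellate list was -0.35, 0.18 and 0.18 in CR-CD and 0.19, 0.07 and -0.32 in CD-CD, so that each group held 1 array in which the endothelial list was the lower. For the 30 markers without the longer number format the intervals reached from -0.99 to 0.74 on the log2 scale.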

How the data were processed

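Liver RNA of CR-CD and CD-CD offspring was measured on 3 arrays each. The deposited values are log2 signals of 33793 probe sets, which the authors had normalized with GeneSpring v 12.5, and how probes were summarized and on which genome build is not given in the sources used here. Array medians lay between 5.48 and 5.54. Probe sets with exactly 1 symbol in the platform's annotation gave 22180 genes, with the brightest probe set for each. A value was called longer in format where it was not the shortest decimal of 1 single-precision number.

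CR-CD was set against CD-CD in R 4.3.3 by limma 3.58.1 (eBayes after lmFit, 4 residual and 2.98 prior degrees of freedom), Benjamini-Hochberg adjusted over all genes, threshold 0.05, two-sided. On simulated data with 3 arrays per group, the fit recovered 46% of log2 changes of 0.6 and 84% of changes of 1. It called 8 genes that had no change. The simulated arrays were independent, with variances drawn to match all genes. The median standard error was 0.17 for the endothelial, 0.14 for the stellate and 0.10 for the bile duct markers, against 0.09 over all genes. Recovery at the spread of the markers was not simulated. A marker that did not pass can therefore still differ. The members and lists were chosen with earlier results of these data known. Every marker is described. The other lists give counts, the genes past the adjusted p and the gene with the smallest p, and further genes named were chosen after their values were seen. Of these lists, 6 genes and all 8 erythroid markers had no probe set of their own symbol and were not analysed here.

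After subtraction of the group means, the correlations across genes were 0.407, 0.208 and 0.201 between arrays of the same replicate number, above the limit of 0.1, so a fit with the replicate block was run beside the main one. Unlike numbers also passed that limit, at 0.261 for CR-CD replicate 3 with CD-CD replicate 2, and at 0.107 for CR-CD replicate 2 with CD-CD replicate 3, so the numbers do not single out 1 pairing, and nothing in the labels states one. Other settings were robust variances with an intensity trend, the methods' t-test, centring each array on its median, quantile normalization, removal of genes under the 40th percentile of signal, averaging the probe sets of a gene, leaving out the longer format, and leaving out each array. Promoters came from RefSeq by symbol. Precision is limited by the number of arrays. Figures used matplotlib 3.10.9, and tables pandas 2.3.3 and numpy 2.4.6, in Python 3.11.15.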

Additional observations from a re-analysis of the deposited data

How the results depend on the processing

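Hand2 and Flt1 passed the adjusted p in limma or the methods' t-test under all 13 alternatives that kept them, at log2 fold changes of 1.12 to 1.21 and -0.89 to -0.81 and with a highest adjusted p of 0.00695 and 0.0176. Without the longer number format neither gene had a value, 0 markers and 0 genes passed, by construction of that step for the markers, and the counts were otherwise 2 markers and 275 to 355 genes. With the replicate block 339 genes passed in place of 329 and no call of a marker changed. The median change of the bile duct list ran from -0.048 to 0.13 when 1 array was left out, the lowest without CD-CD replicate 2. Of 30 markers that did not pass, 16 changed sign under some alternative, none past the adjusted p. Stab1 had -0.00031 after centring on the median and Sox9 -0.0041 after quantile normalization. With 1 array left out the log2 fold changes were Stab1 -0.101 to 0.0851, Stab2 -0.0333 to 0.174, Lyve1 -0.589 to 0.122, Fcgr2b -0.151 to 0.238, Clec4g -0.0873 to 0.279, Kdr -0.0500 to 0.273, Tek -0.0513 to 0.131, Eng -0.240 to 0.0776, Pecam1 -0.195 to 0.0938, Gpr182 -0.506 to 0.0199, Dnase1l3 -0.0120 to 0.307, Pdgfrb -0.0765 to 0.225, Ngfr -0.109 to 0.114, Des -0.100 to 0.237, Reln -0.237 to 0.147 and Sox9 -0.191 to 0.279. The cause of these changes of sign was not tested. The median standard error was 0.17 for the endothelial, 0.14 for the stellate and 0.10 for the bile duct markers.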

Other observations

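Among the other cell types listed, the Kupffer cell lectin Clec4f had the smallest p, at 9.07, 9.60 and 9.29 in CR-CD, against 8.88, 8.83 and 8.59 in CD-CD (log2 fold change 0.55, adjusted p = 0.357 from limma). Vsig4, a complement receptor of the same cells, had 8.56, 9.22 and 8.64 in CR-CD, against 8.29, 8.25 and 7.43 in CD-CD (log2 fold change 0.82, adjusted p = 0.637 from limma), and was chosen after its values were seen. In both genes the groups did not overlap, with CR-CD higher, as in 5 of 10 macrophage markers and 5.63% of all genes. The highest array in both was CR-CD replicate 2. That array was the highest in 9 of 10 macrophage and 6 of 9 measured lymphocyte markers, against 14.7% of all genes. None of the 9 lymphocyte markers passed the adjusted p in limma, and 0 had an unadjusted p under 0.05. The smallest p among the hepatocyte markers was that of Hnf4a, a transcription factor of hepatocyte identity (log2 fold change -0.23, adjusted p = 0.876 from limma), and among the lymphocyte markers that of the B cell gene Ms4a1 (0.15, adjusted p = 0.878).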
